A study of Mus musculus with 29 samples.

Results

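The 9 genes described here mark the dividing cells of the early neural tube, and were followed by gene symbol through RNA-seq libraries of mouse embryonic brain. They are Nes, Vim, Fabp7, Slc1a3, Prom1, Msi1, Ptn, Ednrb and Cdh2, which make 9 of the 25239 genes listed in each count table. All 9 were found in every table, and all 9 passed the filter on low counts that left 15383 genes for testing. Their counts lay between 341 (Slc1a3) and 27071 (Vim) in a library, so none came near the limit of detection.

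The study asked how enhancers, DNA elements that raise transcription of a gene from a distance, contact promoters, and it used RNA-seq to look for genes that depend on particular enhancers. Its 21 samples of capture Hi-C were left aside. The 8 RNA-seq libraries came from embryos of stage E11.5, in mid-gestation, and formed 4 groups of 2 pools each. These were wild-type forebrain, hs267-853 knockout forebrain, wild-type midbrain and hs654 knockout midbrain. Each pool combined dissected tissue of more than 1 embryo of the same genotype. The strain of the embryos is not given in the sources used here, and the labels do not say whether hs267-853 stands for 1 deleted element or for a pair. Each knockout was profiled in 1 tissue alone, so a deletion and its tissue cannot be told apart in any comparison of one knockout with the other. All p-values measure the spread between these pools.

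Neuroepithelial cells form the wall of the neural tube, span it from the inner (apical) to the outer (basal) surface, and divide at the apical side. As neurogenesis begins they turn into radial glia, which keep the long radial fibre, start to express glial proteins such as Fabp7 and Slc1a3, and give rise to neurons directly or through intermediate progenitors. The 9 genes cover several sides of this cell: its intermediate filaments (Nes, Vim), lipid and glutamate handling (Fabp7, Slc1a3), apical membrane and RNA regulation (Prom1, Msi1), a secreted growth factor and a receptor (Ptn, Ednrb), and the adherens junctions that hold the epithelium together (Cdh2). None of them is exclusive to these cells. Vim and Nes are also made in mesenchyme and vessels, Ednrb in neural crest and Cdh2 in young neurons.

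In the assembly GRCm38.p6, which corresponds to the mm10 build named in the submitters' processing notes, Nes lies at chr3:87971093-87980451, Vim at chr2:13574311-13582826, Fabp7 at chr10:57784923-57788450 and Slc1a3 at chr15:8634124-8710807. Prom1 and Msi1 are both on chromosome 5, at chr5:43993621-44102047 and chr5:115359059-115455698. Ptn lies at chr6:36714924-36810179 and Ednrb at chr14:103814615-103844508. All 9 are annotated as protein-coding, and the values below are counts per gene symbol. Upstream windows were taken from a RefSeq promoter table of the same assembly for 7 of the 9 members, at 8 start sites. Msi1 was not listed there, and the search left Cdh2 out. The 250 bases upstream of 4 start sites are shown because Fabp7, Ptn and Ednrb had the largest tissue differences among the members and Vim had the smallest. They are written 5′ to 3′ on the strand of the gene, with motif matches in capitals. The windows are chr10:57784673-57784922 (plus strand), chr6:36810180-36810429 (minus), chr14:103843702-103843951 (minus) and chr2:13574061-13574310 (plus). The Ednrb start site lies within the annotated span of the gene.
Fabp7: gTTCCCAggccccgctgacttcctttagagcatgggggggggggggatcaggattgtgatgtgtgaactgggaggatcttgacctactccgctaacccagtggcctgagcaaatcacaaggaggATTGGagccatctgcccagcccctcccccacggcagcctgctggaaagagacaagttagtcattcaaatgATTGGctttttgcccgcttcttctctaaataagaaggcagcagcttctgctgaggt
Ptn: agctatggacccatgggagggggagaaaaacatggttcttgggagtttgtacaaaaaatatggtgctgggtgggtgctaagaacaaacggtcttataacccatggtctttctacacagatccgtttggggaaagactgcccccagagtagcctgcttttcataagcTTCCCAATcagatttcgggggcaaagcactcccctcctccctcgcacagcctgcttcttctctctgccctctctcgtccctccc
Ednrb: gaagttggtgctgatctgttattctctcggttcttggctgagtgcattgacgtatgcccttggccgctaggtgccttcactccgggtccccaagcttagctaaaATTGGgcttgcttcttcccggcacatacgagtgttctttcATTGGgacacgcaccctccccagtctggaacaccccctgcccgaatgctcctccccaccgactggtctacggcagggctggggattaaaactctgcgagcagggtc
Vim: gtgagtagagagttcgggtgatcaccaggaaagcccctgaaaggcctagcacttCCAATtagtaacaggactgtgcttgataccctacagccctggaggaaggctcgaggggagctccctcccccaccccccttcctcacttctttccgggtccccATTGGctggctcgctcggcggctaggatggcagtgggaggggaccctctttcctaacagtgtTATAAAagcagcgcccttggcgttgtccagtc

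The motifs searched, on both strands, were the TATA box (TATAAA), the CCAAT box (CCAAT), the core letters of sites for RBPJ, the DNA-binding partner of Notch (TGGGAA), and 2 spellings of SOX sites (ACAAAG and ACAATG). The CCAAT box was found upstream of 6 of the 7 genes, Nes being the exception, though in only 1 of the 2 Prom1 windows. Counted by window and not by gene, 33.8% of all 32851 windows of this length held it. The RBPJ letters stood in the Fabp7 and Ptn windows and in 1 of the 2 Prom1 windows, against 21.6% of all windows. In Ptn they overlapped the CCAAT box, at 84 to 79 and 81 to 77 bases before the start. Vim had a TATA box 32 to 27 bases before its start and Slc1a3 had one 161 to 156 bases before, against 12.4% of all windows. Neither SOX spelling was found in any of the 8 member windows, and 16.5% and 10.7% of all windows held them. A match describes the letters of these windows and no more. The member windows were 44.8% (Slc1a3) to 59.2% (Prom1) G and C, and the median over all windows was 52.4%. Both genes without a called tissue difference (Vim and Slc1a3) carried the CCAAT box, as did 4 with one (Fabp7, Prom1, Ptn and Ednrb). Of the other genes with a called difference, Nes lacked it, and no window was examined for Msi1 and Cdh2.

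The tissue labels matched the regional genes. Emx1, a transcription factor of the dorsal forebrain, was at 52.7 to 58.4 CPM (counts relative to TMM-scaled library size) in the 4 forebrain libraries and at 0.886 to 4.47 CPM in the 4 midbrain libraries. En2, a midbrain transcription factor, had 130 to 158 CPM in midbrain and no count in forebrain, where a count of 0 allows up to 0.170 to 0.232 CPM by counting error alone. A deleted enhancer has no row in a gene table, so the knockout labels could not be checked in the same way. Total counts in genes ranged from 9051632 to 18024406. Replicate 1 of the hs267-853 knockout stood apart on the second principal component (33.7, with the other 7 libraries between -18.3 and 1.66), and results that use it are given with and without it. The 9 mesenchyme genes summed to 1248 CPM in that library, against 1752 to 2203 CPM in the other 3 forebrain libraries. Its sum of 9 neuron genes was higher than theirs (2050 against 1458 to 1832 CPM). So was its sum of 16 further progenitor and radial glia genes (2279 against 1987 to 2079 CPM).

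Most of the 9 genes had less RNA in forebrain than in midbrain. In wild-type tissue, 6 of 9 were lower in forebrain (Fabp7, Ednrb, Ptn, Nes, Msi1 and Prom1), 1 was higher (Cdh2), and 2 did not pass the threshold (Vim and Slc1a3). The differences ran from 2.03-fold lower for Fabp7 to 1.36-fold higher for Cdh2. Among all genes tested, 15.3% were called lower and 14.3% higher in forebrain, and the median log2 fold change was -0.44 over the 9 members and 0.0012 over all genes. Here and below, a gene is called where the Benjamini-Hochberg adjusted p of an edgeR quasi-likelihood F test, over all 15383 genes, is under 0.05. In pooled tissue, fewer cells of a type and less RNA per cell cannot be told apart.

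**Figure D1:**
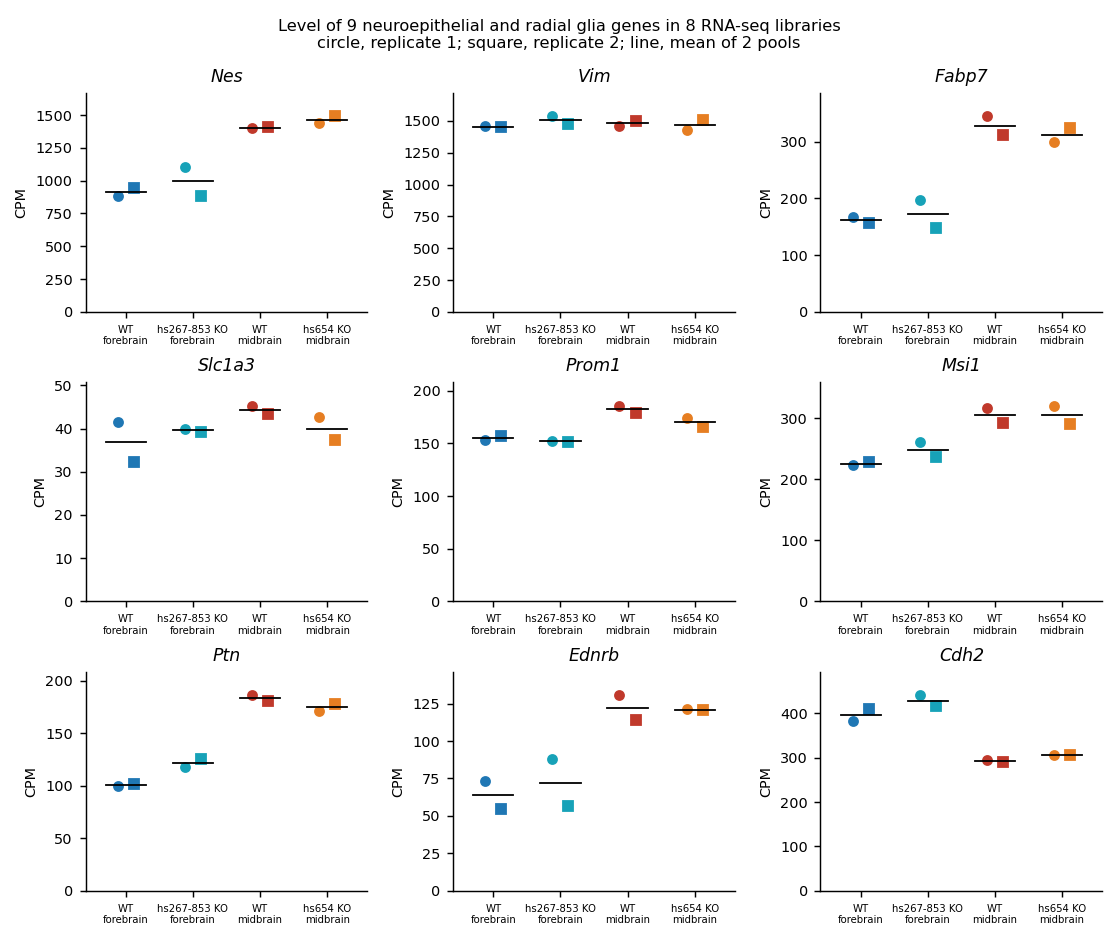
Level of each of the 9 genes (CPM, linear axis from 0) in the 8 libraries. Circles are replicate 1, squares replicate 2, and the line is the mean of 2 pools. Nes, Fabp7, Msi1, Ptn and Ednrb sit higher in all 4 midbrain libraries, Cdh2 sits higher in all 4 forebrain libraries, and Vim is level between 1430 and 1536 CPM.

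The 2 intermediate filament genes behaved differently. Nes, which encodes nestin, the filament protein used to mark neural stem cells, was at 887 and 942 CPM in the wild-type forebrain pools and at 1398 and 1411 CPM in the wild-type midbrain pools. It was at 1106 and 882 CPM in hs267-853 knockout forebrain and at 1436 and 1491 CPM in hs654 knockout midbrain. No forebrain library reached the lowest midbrain library, and the highest forebrain value was that of knockout replicate 1. In wild-type tissue Nes was 1.54-fold lower in forebrain (log2 fold change -0.62, SE 0.0829, edgeR adjusted p = 0.000108). Vim encodes vimentin, the filament protein with which nestin assembles. It was at 1460 and 1448 CPM in wild-type forebrain, 1536 and 1473 in knockout forebrain, 1462 and 1502 in wild-type midbrain and 1430 and 1503 in knockout midbrain. The tissues overlapped, with 1 knockout forebrain library above and 1 knockout midbrain library below all libraries of the other tissue, and the whole range over 8 libraries was narrow. Its tissue difference in wild type was -0.03 on the log2 scale, with a 95% interval of -0.136 to 0.082 (edgeR adjusted p = 0.732).

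The 2 genes that radial glia share with later astrocytes also differed in size of effect. Fabp7 encodes the brain fatty acid binding protein, a carrier of long-chain fatty acids that appears as neuroepithelium becomes radial glia. It was at 168 and 156 CPM in wild-type forebrain and at 345 and 312 CPM in wild-type midbrain. The knockout pools had 196 and 148 CPM in forebrain and 299 and 324 CPM in midbrain. Every midbrain library lay above every forebrain library, with a wide gap between them. The difference in wild type was the largest in size of the 9, at 2.03-fold lower in forebrain (log2 -1.02, SE 0.104, edgeR adjusted p = 9.42e-06). Slc1a3 encodes GLAST, a glial transporter that takes up glutamate. It was at 41.6 and 32.3 CPM in wild-type forebrain, 39.9 and 39.3 in knockout forebrain, 45.3 and 43.3 in wild-type midbrain and 42.7 and 37.2 in knockout midbrain. Forebrain and midbrain libraries overlapped, and the wild-type forebrain pools were themselves 1.29-fold apart. The wild-type difference of -0.26 (SE 0.118) had an edgeR adjusted p of 0.12. It moved with the single forebrain pools, to -0.46 without wild-type forebrain replicate 1 (edgeR adjusted p = 0.0241) and to -0.09 without replicate 2 (edgeR adjusted p = 0.661).

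Prom1 and Msi1 showed the smaller of the called differences. Prom1 encodes prominin-1 (CD133), a protein of apical membrane protrusions. It was at 153 and 157 CPM in wild-type forebrain and at 186 and 179 CPM in wild-type midbrain. The knockout forebrain pools both had 152 CPM, and the knockout midbrain pools had 174 and 166 CPM. The tissues did not overlap, although the lowest midbrain and the highest forebrain library were close. Prom1 was 1.18-fold lower in wild-type forebrain (log2 -0.24, SE 0.0579, edgeR adjusted p = 0.00814). This call was lost without wild-type forebrain replicate 1 (edgeR adjusted p = 0.0643) and without wild-type midbrain replicate 1 (edgeR adjusted p = 0.0674), at log2 values of -0.22 and -0.21. Msi1 encodes Musashi-1, an RNA-binding protein that represses translation of the Notch inhibitor Numb. Its pools were at 223 and 227 CPM in wild-type forebrain and 316 and 293 CPM in wild-type midbrain, with 261 and 236 CPM in knockout forebrain and 320 and 290 CPM in knockout midbrain. Again no forebrain library reached the midbrain range. Msi1 was 1.35-fold lower in wild-type forebrain (log2 -0.44, SE 0.0682, edgeR adjusted p = 0.000385).

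The secreted factor and the receptor were among the 3 largest differences. Ptn encodes pleiotrophin, a heparin-binding growth factor that radial glia release and whose receptors include Ptprz1. It was at 100 and 102 CPM in wild-type forebrain and at 186 and 181 CPM in wild-type midbrain. The knockout pools had 118 and 126 CPM in forebrain and 171 and 178 CPM in midbrain. The replicates of each group lay close together, and the 4 groups formed 4 separate ranges, with both knockouts nearer to each other than the wild types were. Ptn was 1.82-fold lower in wild-type forebrain (log2 -0.86, SE 0.0616), and its edgeR adjusted p of 3.19e-07 was the smallest of the members. Ednrb encodes the endothelin receptor type B, which neural progenitors and neural crest cells carry. It was at 73.5 and 54.9 CPM in wild-type forebrain, 88.2 and 56.3 in knockout forebrain, 131 and 114 in wild-type midbrain and 121 and 121 in knockout midbrain. It had the widest scatter between replicates in forebrain, where the knockout pools were 1.57-fold apart, yet the tissues did not overlap. Ednrb was 1.90-fold lower in wild-type forebrain (log2 -0.93, SE 0.168, edgeR adjusted p = 0.00114).

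Cdh2 went the other way. It encodes N-cadherin, which joins neuroepithelial cells to one another at their apical ends. It was at 383 and 410 CPM in wild-type forebrain, 441 and 416 in knockout forebrain, 294 and 290 in wild-type midbrain and 306 and 306 in knockout midbrain. All 4 forebrain libraries lay above all 4 midbrain libraries. Cdh2 was 1.36-fold higher in wild-type forebrain (log2 0.44, SE 0.0544, edgeR adjusted p = 5.01e-05). Over the 9 genes, 6 had all forebrain libraries below all midbrain libraries, a pattern shown by 20.3% of all genes tested, and Cdh2 alone had the reverse, shown by 20.6%.

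The 4 knockout libraries give the tissue contrast a second time, with group means from other pools and with the deletions differing along with the tissue. The spread in both contrasts was estimated from all 8 libraries together, so their standard errors and p-values are not independent. Here 5 of 9 members were lower in forebrain (Fabp7, Ednrb, Nes, Ptn and Msi1) and Cdh2 was higher, against 14.8% and 14.6% of all genes. The order of the largest changed little: Fabp7 was 1.81-fold lower (log2 -0.85, edgeR adjusted p = 4.95e-05), Ednrb 1.67-fold lower (-0.74, 0.00488) and Nes 1.47-fold lower (-0.56, 0.00024). Ptn followed at 1.44-fold lower (log2 -0.52, edgeR adjusted p = 3.5e-05). Msi1 was 1.23-fold lower (log2 -0.30, edgeR adjusted p = 0.00541), a call that was lost without hs654 knockout replicate 1 (-0.24, edgeR adjusted p = 0.07). Cdh2 was 1.40-fold higher (log2 0.48, edgeR adjusted p = 2.43e-05). Prom1 fell just outside the threshold at -0.16 (edgeR adjusted p = 0.0502), and Vim (0.04) and Slc1a3 (-0.02) stayed near 0. Without hs267-853 knockout replicate 1, the library that stands apart, Fabp7 had -1.07, Ednrb -1.10, Nes -0.73, Msi1 -0.37, Ptn -0.47 and Cdh2 0.44, and all 6 kept their calls. Ednrb was the member most dependent on single libraries, at -0.45 (edgeR adjusted p = 0.0387) without hs267-853 knockout replicate 2.

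**Figure D2:**
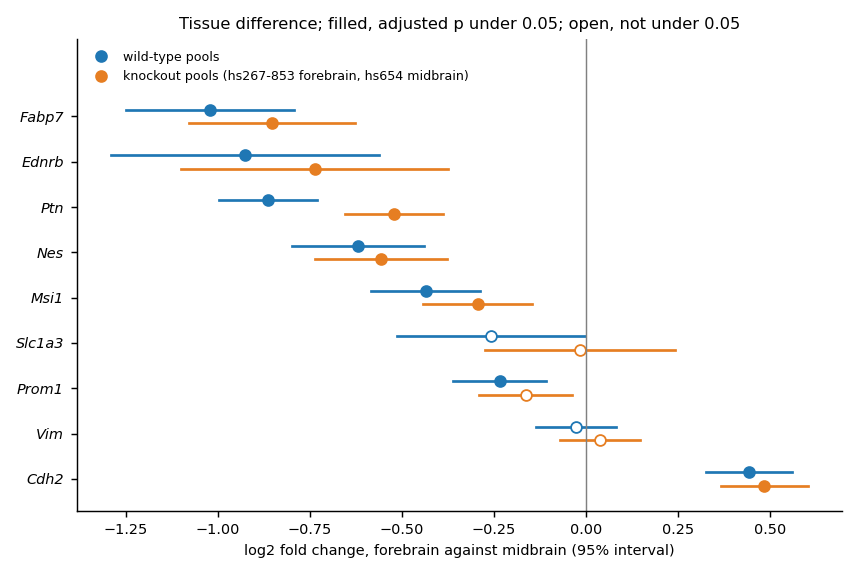
Tissue difference of the 9 genes as log2 fold change, forebrain against midbrain, with 95% intervals. Blue points compare wild-type pools and orange points knockout pools, and filled points have an adjusted p under 0.05. Fabp7, Ednrb, Ptn, Nes and Msi1 lie left of 0 in both, Cdh2 lies right of 0 in both, and the Vim intervals span 0.

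Other genes of progenitors did not share the members' direction. Of 16 further progenitor and radial glia genes, 15 were tested, with 10 higher and 3 lower in wild-type forebrain, 2 not called and a median log2 fold change of 0.57. Among the higher ones were Hopx (log2 3.33), Nr2e1 (1.79), the nuclear receptor that keeps forebrain stem cells dividing, Ddah1 (1.58) and Sox2 (0.57), a transcription factor of neural stem cells. Nr2e1 was at 157 to 195 CPM in the forebrain libraries and at 47.1 to 54.4 CPM in the midbrain libraries. Lower in forebrain, as most members were, were Lrp2 (-1.89), an endocytic receptor of the apical surface, Aldh1l1 (-1.63) and Hes5 (-0.97), a Notch target. Aldh1l1 was low in both tissues, at 1.49 and 1.62 CPM in wild-type forebrain and 4.93 and 4.71 CPM in wild-type midbrain. Hes5 was at 93.9 to 131 CPM in forebrain and at 193 to 222 CPM in midbrain, with no overlap. Notch1 itself was not called (-0.11, edgeR adjusted p = 0.158). Several genes of this list also take part in the regional patterning of the brain.

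The relatives of Nes and Vim included the genes with the largest differences near any member. Of 10 other intermediate filament genes tested, 5 were lower and 2 higher in wild-type forebrain. The lower ones included the neuronal filament genes Nefl (log2 -4.00), Nefm (-3.10) and Ina (-1.57) and the peripheral neuron gene Prph (-4.02). Nefl had 11.53 to 17.6 CPM in forebrain and 197 to 212 CPM in midbrain. Prph was near the floor in wild-type forebrain, at 0.136 and 0.310 CPM, and had 3.29 and 4.07 CPM in wild-type midbrain. The size of its difference therefore rests on few counts. The higher ones were the lamin genes Lmnb1 (0.33) and Lmnb2 (0.28), which line the nucleus. Among relatives of Fabp7, 4 of 11 were tested, and 4 had no count in any library. Fabp5, a second fatty acid binding protein of progenitors, was level at 185 to 200 CPM in all 8 libraries (-0.03, edgeR adjusted p = 0.766). Of the related retinoic acid binding proteins, Crabp1 was lower in forebrain (-1.74) and Crabp2 higher (0.34). Of the 5 other glutamate transporter genes tested, Slc1a2, which encodes the second glial glutamate transporter, was the 1 called, at -2.14, with 38.0 to 52.7 CPM in forebrain and 186 to 212 CPM in midbrain. Slc1a4 was not called (0.10, edgeR adjusted p = 0.453).

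For the other members, relatives moved in both directions. Msi2, the paralogue of Msi1, was lower in wild-type forebrain (-0.30), as was Numbl (-0.26), a relative of Numb. The remaining 2 of the 4 genes in the prominin and Musashi list were Prom2, called higher at under 1 CPM on average, and Numb, which was not called. Of 7 further pleiotrophin ligands and receptors, 3 were higher and 3 lower in wild-type forebrain, and with upper-quartile scaling 2 were higher. Mdk, which encodes midkine, the growth factor most like pleiotrophin, was higher (0.70), at 399 to 438 CPM in forebrain against 233 to 261 CPM in midbrain. The receptor gene Ptprz1 was higher as well (1.09), so ligand Ptn and receptor Ptprz1 differed in opposite directions. Itgav was higher by a small margin (0.33), and Sdc3 (-0.57) and Lrp1 (-0.30) were lower. Of the 5 other endothelin genes tested, Ednra, which encodes the type A receptor, was the 1 called, at 1.42, opposite in sign to Ednrb. Ednra was at 20.1 to 47.9 CPM in forebrain and 12.6 to 19.7 CPM in midbrain, with its lowest forebrain value in knockout replicate 1. Of 14 other cadherin, catenin and polarity genes, 6 were higher and 2 lower. Cdh3 (3.44), Cdh4 (1.03) and Pard6b (0.74), a part of the apical polarity complex, were higher. Ctnna2 (-0.71) and Ctnnb1 (-0.25), which link cadherins to the cytoskeleton, were lower. Cdh3 was low in wild-type midbrain, at 0.443 and 2.00 CPM.

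**Figure D3:**
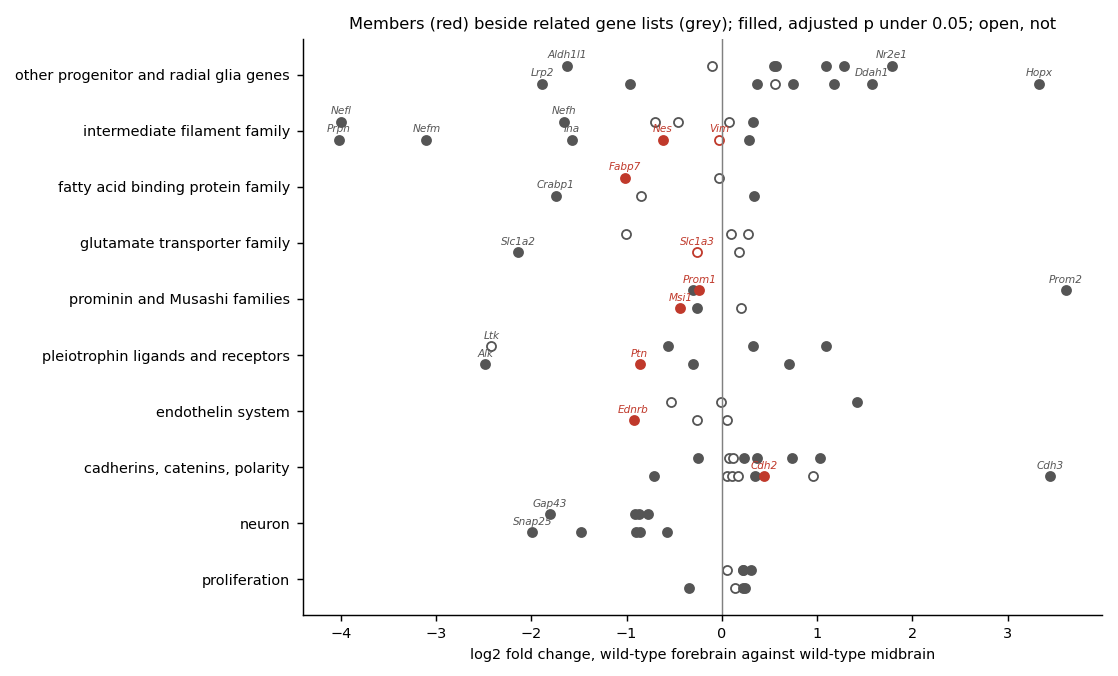
Log2 fold change of wild-type forebrain against wild-type midbrain for the 9 genes (red) and for related lists (grey), with filled points at an adjusted p under 0.05. Height within a row has no meaning, and names are given for the 9 genes and for differences beyond 1.5 on the log2 scale. The neuron list lies wholly left of 0 and the proliferation list mostly right of it.

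Markers of other cell types moved with the same contrast. All 9 neuron genes were lower in wild-type forebrain (median log2 fold change -0.90), and their summed level was 1458 to 2050 CPM in the 4 forebrain libraries and 3149 to 3567 CPM in the 4 midbrain libraries. Tubb3, the neuronal tubulin, was at 487 to 702 CPM in forebrain and 955 to 1106 CPM in midbrain. Of 8 proliferation genes, 5 were higher and 1 lower in wild-type forebrain (median 0.22), with sums of 3571 to 3833 CPM in forebrain and 3264 to 3539 CPM in midbrain. Mcm2, which licenses DNA for replication, was among the higher ones (0.31), and Ccnd1, a cyclin of the G1 phase, was the lower one (-0.35). Of 9 mesenchyme genes 3 were higher and 1 lower, with sums of 1248 to 2203 CPM in forebrain and 1408 to 1959 CPM in midbrain. Of 8 endothelial genes 2 were higher (316 to 327 against 249 to 312 CPM), and of 7 macrophage genes 3 were lower (24.6 to 36.2 against 47.6 to 56.8 CPM). Of 5 neural crest genes tested 2 were higher and 1 was lower. The list summed to 17.8 to 29.4 CPM in forebrain and 33.7 to 37.7 CPM in midbrain, and its defining genes Sox10 (at most 1.38 CPM) and Foxd3 (at most 0.458 CPM) were close to the floor. The part of other cell types in the tissue differences of the 9 genes was not tested.

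**Figure D4:**
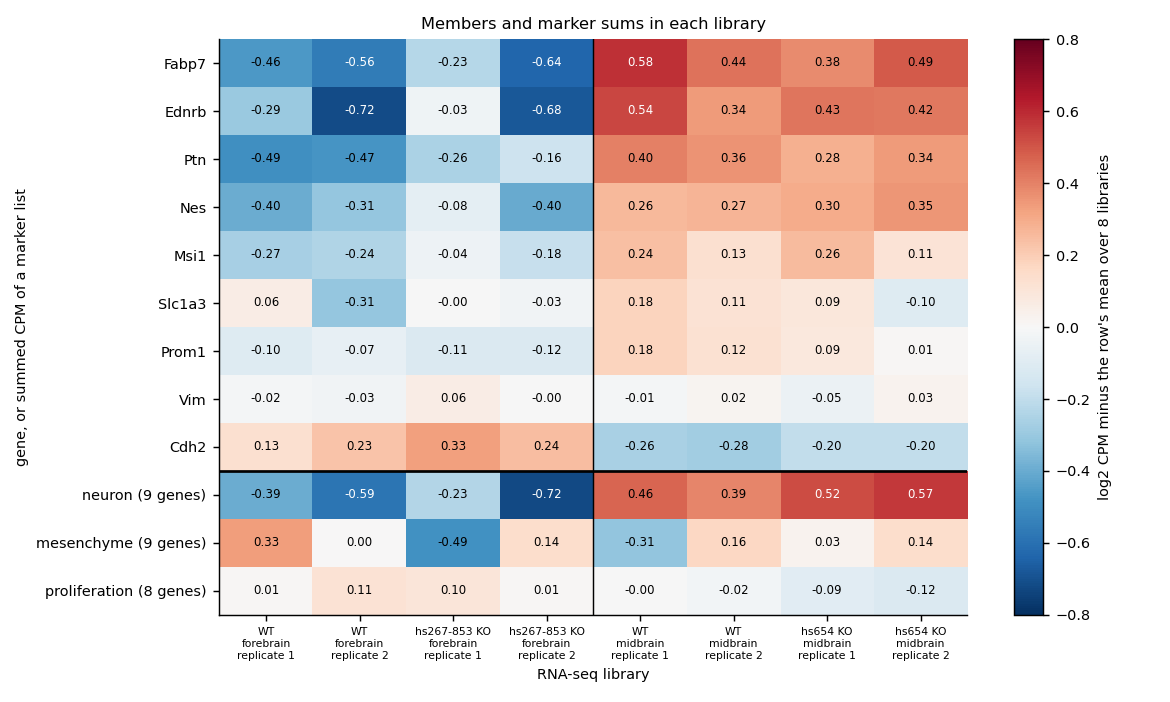
Log2 level of the 9 genes, and of the summed CPM of 3 marker lists, in each library minus the row's mean over the 8 libraries. Fabp7, Ednrb, Ptn and Nes are below 0 in all 4 forebrain libraries, as is the neuron sum. The third column, hs267-853 knockout replicate 1, is the highest forebrain value for Fabp7, Ednrb, Nes, Msi1, Vim and Cdh2. It also has the highest forebrain neuron sum and the lowest mesenchyme sum.

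None of the 9 genes was called in hs267-853 knockout forebrain against wild-type forebrain by edgeR, DESeq2 or limma-voom. Over the whole table, edgeR called 2 of 15383 genes (0.0130%). With both knockout libraries above both wild-type libraries were Vim, Msi1, Ptn and Cdh2 (4 of 9, where 17.2% of all genes had this pattern), and Prom1 had both below (13.9% of all genes). The median log2 fold change was 0.11 over the members and 0.00778 over all genes, and 8 of 9 members had a positive value. Replicate 1 of the knockout was the highest of the 4 forebrain libraries for 6 of the 9 genes. Without it, Nes went from 0.12 to -0.05, Fabp7 from 0.09 to -0.13 and Ednrb from 0.17 to -0.19. Vim (from 0.05 to 0.02), Slc1a3 (from 0.10 to 0.09), Msi1 (from 0.14 to 0.07) and Cdh2 (from 0.11 to 0.07) kept a positive sign. Without replicate 2 instead, Nes was 0.27 with an edgeR adjusted p of 0.0273, and the number of genes called in the whole table was 209.

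Ptn had the smallest p-value of the members in this comparison. Its knockout forebrain pools (118 and 126 CPM) lay above its wild-type forebrain pools (100 and 102 CPM), and the gap between groups exceeded the gap within either. Ptn was 1.21-fold higher (log2 0.27, SE 0.0618, 95% interval 0.139 to 0.407). Its unadjusted p was 0.000732, the only 1 of the members under 0.05, where 736 of 15383 genes were, and the edgeR adjusted p was 0.391, so it was not called. It did not rest on the outlying library, since the value without knockout replicate 1 was 0.32 (edgeR adjusted p = 0.207). With no filter on low counts the edgeR adjusted p was 0.0312, and 161 genes were then called. The intervals of the other 8 members all included 0, those of Msi1 (-0.0043 to 0.291) and Cdh2 (-0.00547 to 0.228) only just. The others ran from -0.0598 to 0.158 for Vim, the narrowest, to -0.197 to 0.541 for Ednrb, the widest.

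None of the 9 genes passed the threshold between hs654 knockout and wild-type midbrain. No gene in the whole table was called by edgeR (0% of 15383), by DESeq2 or by limma-voom, and 609 genes had an unadjusted p under 0.05, none of them a member. The edgeR adjusted p-values of the members were 0.992 to 1. The log2 fold changes ran from -0.15 for Slc1a3 (95% interval -0.405 to 0.114) to 0.07 for Cdh2 (-0.0495 to 0.188). Nes (0.06, interval -0.119 to 0.238) and Ptn (-0.07, interval -0.201 to 0.0615) were close to 0. Nes and Cdh2 had both knockout libraries above both wild-type libraries, a pattern of 17.9% of all genes, and Slc1a3, Prom1 and Ptn had both below, a pattern of 18.8%. Erythroid genes summed to 6772 CPM in wild-type midbrain replicate 1 and to 3359 to 3815 CPM in the other 3 midbrain libraries. Without that library no member was called, and Fabp7 went from -0.08 to 0.002307 and Ednrb from -0.02 to 0.09.

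**Figure D5:**
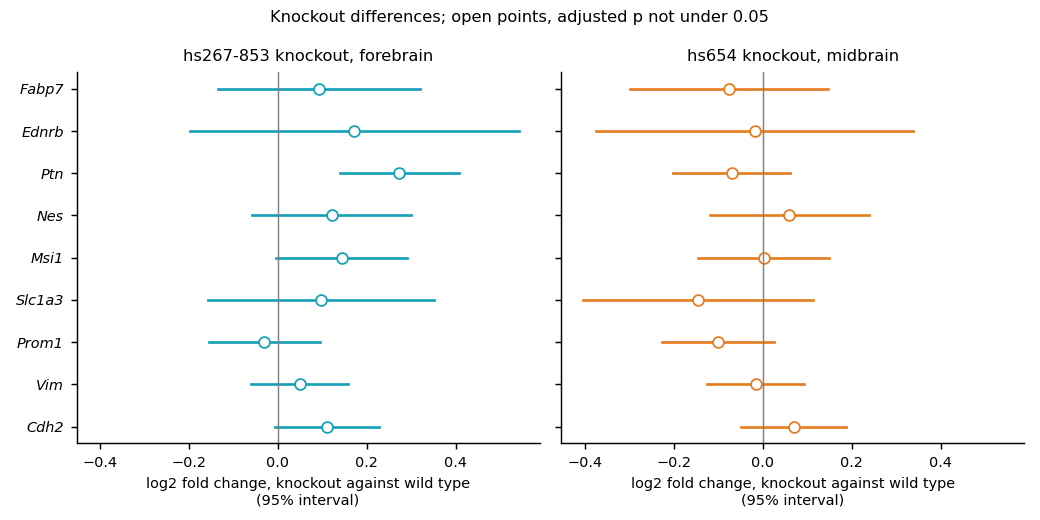
Log2 fold change of the 9 genes, knockout against wild type, with 95% intervals, for the hs267-853 knockout in forebrain (left) and the hs654 knockout in midbrain (right). All points are open, as none has an adjusted p under 0.05. The interval of Ptn in forebrain lies right of 0, and those of Ednrb are the widest.

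The test of the difference between the 2 knockout effects called no member either by edgeR, DESeq2 or limma-voom (edgeR adjusted p = 0.996 for all 9), and edgeR called 1 gene in the table (0.00650%). All 9 differences, midbrain effect minus forebrain effect, were negative. Without hs267-853 knockout replicate 1, Nes (0.11), Fabp7 (0.05) and Ednrb (0.17) were positive, and Cdh2 was at 0.00. Without wild-type forebrain replicate 1 Cdh2 was positive (0.006188), as was Ednrb without wild-type forebrain replicate 2 (0.001983). The largest was that of Ptn, at -0.34 with all libraries and -0.39 without knockout replicate 1 (95% interval with all -0.53 to -0.155, unadjusted p 0.0017, the only member under 0.05). It is the same quantity as the gap between the 2 tissue contrasts, in which Ptn was 1.82-fold lower in forebrain among wild types and 1.44-fold lower among knockouts. Of 135 tested genes in the related lists and marker lists, edgeR called 0 in each knockout comparison, and 12 had an unadjusted p under 0.05 in each. Among all genes tested, 4.78% had such a p for the hs267-853 knockout and 3.96% for the hs654 knockout, smaller shares than 12 of 135. The excess in the lists was not tested.

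For Fabp7, whose wild-type difference reached 2-fold, the genes with the most similar profile were sought among 10599 genes with a mean of at least 10 CPM. The measure was the root mean square distance between log2 CPM profiles over the 8 libraries, each centred on its own mean. The nearest were Lrrn3 (distance 0.0643), a transmembrane protein with leucine-rich repeats, the uncharacterised 6430548M08Rik (0.0692) and Nt5c2 (0.0699), a nucleotidase. Lrrn3 was at 22.5 to 31.2 CPM in forebrain and 42.7 to 54.1 CPM in midbrain, and Nt5c2 at 62.3 to 74.9 and 118 to 130 CPM. Like Fabp7, all 3 had separate ranges in the tissues. This follows from their selection for closeness to the Fabp7 profile and is not a separate result. The 8 points of each profile share their libraries and the contrast between the tissues.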

How the data were processed

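The authors deposited raw counts per gene symbol, 1 table per RNA-seq library, with no normalization. STAR, HTSeq, DESeq2 and mm10 are named in the submitters' processing notes. The annotation and strand setting are not given in the sources used here, so reads of antisense partners cannot be separated. The 5 rows that name no gene were kept out; 40.7% to 44.1% of assigned and unassigned counts fell in genes and 55.4% to 58.9% in no feature.

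Genes were filtered with filterByExpr and scaled by TMM (factors 0.978 to 1.01). In R 4.3.3, the quasi-likelihood F test of edgeR 4.0.16 was run with 1 mean for each group and all 8 libraries (residual degrees of freedom 4, biological coefficient of variation 7.62%), with two-sided tests and Benjamini-Hochberg adjustment over 15383 genes. Standard errors were derived from F, and 95% intervals from these. log2 CPM used a prior count of 2. Zero counts allow 3 counts. No library was a duplicate: chi-square over its degrees of freedom was 3.75 to 7.74 between replicates.

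The members and gene lists were chosen with earlier results of these data known. From each list, up to 3 genes higher and 3 lower in wild-type forebrain (adjusted p under 0.05, mean of at least 1 CPM) and the 2 most abundant could be named. Numb and Prom2 are named outside this rule or below its minimum, after their values were seen. The settings varied were the scaling (RLE, upper-quartile), the filter (none, or a mean count of 50 or more), the tool (DESeq2 1.42.0; limma-voom, limma 3.58.1), the 4 libraries compared alone, a replicate block and each library left out.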

Additional observations from a re-analysis of the deposited data

How the results depend on the processing

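The calls of the 9 genes in wild-type tissue were the same under every scaling, filter and tool tried, and those of Fabp7, Ednrb, Ptn, Nes, Msi1 and Cdh2 also without any single library. Leaving out 1 library moved the number of genes called from 4548 to between 2816 and 3510 in wild-type tissue (2816 without wild-type midbrain replicate 1, 3019 without wild-type forebrain replicate 2) and from 4523 to between 2810 and 4267 among knockouts (2845 and 2810 without hs654 knockout replicates 1 and 2). The lone pool left is then assumed to vary like the other groups. For the hs267-853 knockout the count of 2 became 161 with no filter, 13 by DESeq2, 1 by limma-voom, 1 with only the 4 libraries compared, and 3 to 209 with 1 library left out (9 without knockout replicate 1, 209 without replicate 2). With no filter 1 member was called (Ptn), and with a library left out 0 to 1 (Nes). For the hs654 knockout the count of 0 became 22 with no filter, 1 with only the 4 libraries and 0 to 8 with 1 left out (8 without wild-type replicate 2, 2 without knockout replicate 1). For the difference between the knockout effects the count of 1 became 111 with no filter, 4 by DESeq2 and 0 to 64 with 1 left out (64 without hs267-853 knockout replicate 2). The causes were not tested.

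Signs that turned belonged to values that were not called. With 1 library left out, the hs267-853 effect spanned -0.0518 to 0.2747 for Nes, -0.1255 to 0.2792 for Fabp7, -0.07114 to 0.2956 for Slc1a3 and -0.1929 to 0.4532 for Ednrb. The hs654 effect spanned -0.05208 to 0.03065 for Vim, -0.1469 to 0.002307 for Fabp7, -0.06237 to 0.07259 for Msi1 and -0.1122 to 0.0889 for Ednrb, and Msi1 was -0.002804 with upper-quartile scaling. The tissue difference among knockouts spanned -0.01567 to 0.07648 for Vim and -0.1055 to 0.0704 for Slc1a3. The difference between knockout effects spanned -0.2158 to 0.1109 for Nes, -0.3563 to 0.04855 for Fabp7, -0.4724 to 0.1738 for Ednrb and -0.09303 to 0.006188 for Cdh2. Among knockouts, Prom1 was called under RLE scaling (adjusted p = 0.0363), upper-quartile scaling (0.0383), a mean of at least 50 counts (0.0183) and limma-voom (0.0481), over a range of 0.0183 to 0.229. Replicate numbers gave no sign of pairing over all genes: deviations from group means correlated across genes at -0.0255 to 0.0432. Such a correlation cannot exclude that pools with the same number shared a litter or day, which the labels do not state. A replicate block gave 3 called genes for the hs267-853 knockout and 4501 in wild-type tissue, and changed no member's call.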

Other observations

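Genes of intermediate progenitors, the daughter cells of radial glia, were not uniform between the tissues. Of 6 such genes, 1 was higher and 3 lower in wild-type forebrain. Eomes, a transcription factor of cortical intermediate progenitors, was at 113 to 130 CPM in the 4 forebrain libraries and at 0.190 to 2.00 CPM in the 4 midbrain libraries (log2 fold change 6.86, edgeR adjusted p = 2.93e-09 in wild type). Btg2 (-0.94) and Insm1 (-0.55), which act as cells leave the cycle or commit to neurons, were among those lower in forebrain, the direction shown by Fabp7, Ptn and Ednrb. Neurog2, a proneural factor, was at 113 to 148 CPM in forebrain and 112 to 136 CPM in midbrain and was not called (0.01, edgeR adjusted p = 0.959). The 6 genes together summed to 465 to 603 CPM in forebrain and to 545 to 636 CPM in midbrain, so the tissues overlapped. The 7 erythroid genes found summed to 4132 to 4827 CPM in forebrain and to 3359 to 6772 CPM in midbrain. All 8 forebrain regional genes were higher in wild-type forebrain, and of 5 midbrain regional genes 4 were lower and Fgf17 was higher (0.94).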
